A study of Mus musculus with 20 samples.

Results

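Of 33 listed mouse genes of mitochondrial fatty acid oxidation and ketone body metabolism, 28 were measured in the livers of mice given an antagonist of Toll-like receptors 7 and 9 and of untreated mice. The genes were found by their symbols in the annotation of the array platform. A gene counted as measured where at least 1 of its probes had a detection p under 0.05 on 5 or more of the 20 arrays. The annotation held 63 probes for 30 of the 33 genes, and 55 of these probes passed, beside 18285 of 45281 probes on the whole array. Hadha, the alpha subunit of the trifunctional protein, had 1 probe, detected on 3 of 20 arrays. Hibch, a hydrolase of valine breakdown, had 1 probe, detected on 4 of 20 arrays. Acad11, Acsl1 and Ucp2 have no probe named in the annotation used and were not analysed here. Just inside the filter lay Cpt1a, whose probes were detected on 7 and 6 arrays.

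Fatty acids enter this pathway as acyl-CoA thioesters made by acyl-CoA synthetases, and long chains cross the mitochondrial membranes as carnitine esters. In the matrix each round of beta-oxidation removes an acetyl unit through a dehydrogenation, a hydration, another dehydrogenation and a thiolytic cleavage, and electron transfer flavoprotein passes electrons of the acyl-CoA dehydrogenases to the respiratory chain. The fasting liver turns much of the resulting acetyl-CoA into ketone bodies, which other tissues burn, and the nuclear receptor PPAR alpha is the best known activator of this pathway's genes in liver.

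The livers came from male mice 14 weeks old, all labelled with the C57BL/6 strain, in 4 groups of 5 arrays each. The first group was ApoE-/- and received the antagonist by intraperitoneal injection at 15 mg/kg, 3 times a week, between weeks 6 and 11. The second was ApoE-/- without antagonist, the third wild type with the same antagonist course, and the fourth wild type without antagonist. ApoE-/- mice lack apolipoprotein E, a ligand that clears lipoprotein remnants. All 4 groups ate a high fat diet, with 21% fat and 0.15% cholesterol for ApoE-/- mice and 35% fat and 0.03% cholesterol for wild-type mice, so genotype and diet cannot be told apart. Dosing had ended at week 11, before tissue was taken at week 14. The untreated mice received no antagonist, and the labels name no injection of vehicle.

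Signals below are background-corrected and quantile-normalised probe intensities on the log2 scale, from the brightest detected probe of each gene, and arrays are listed from replicate 1 to 5. The number of probes detected per array was 15816 to 17598 in treated and 15530 to 16660 in untreated ApoE-/- mice, and 16051 to 18748 in treated and 14436 to 16032 in untreated wild-type mice. Arrays of a group correlated at 0.971 to 0.9941. The Apoe probe read 5.26 to 6.88 over the ApoE-/- arrays and 13.6 to 14.61 over the wild-type arrays. Replicates 1 to 3 of every group formed one array batch and replicates 4 and 5 another, as read from the form of the column names. Within the batch of replicates 4 and 5 the untreated ApoE-/- arrays lay on another slide than the rest, by the same names. No label says that every replicate is a separate animal. The p-values therefore cover only how far these arrays vary, part of which may be technical.

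The change with the antagonist was negative for 25 of the 28 genes in ApoE-/- mice and for 26 in wild-type mice, but not all of these passed the test. In ApoE-/- mice 12 of 28 fell and 2 rose at an adjusted p under 0.05 by limma's moderated test (Benjamini-Hochberg over 12976 array entries), while 13.3% of all entries fell and 16.3% rose (29.6% called). In wild-type mice 19 of 28 fell and 2 rose, where 16.7% and 21.7% of all entries did (38.4% called). The median log2 change of the 28 genes was -0.35 in ApoE-/- mice and -0.51 in wild-type mice, where the medians over all entries were 0.01 and 0.00. As shares, 42.9% of the genes fell in ApoE-/- mice and 67.9% in wild-type mice. In bulk liver RNA, fewer cells of a type and less RNA per cell cannot be told apart.

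Every gene called in ApoE-/- mice was called in the same direction in wild-type mice: 12 were lower in both, 2 were higher in both, 7 more were called lower in wild-type mice, and 7 were called in neither. The sign of the change was shared by 27 of 28 genes, and the exception was Acad10. The 2 genes that rose were Acsl3, an acyl-CoA synthetase, and Oxct1, which activates the ketone body acetoacetate for use. The arrays of the antagonist and untreated groups did not overlap for 10 genes on the lower and 1 on the higher side in ApoE-/- mice, where 7.84% and 10.5% of all entries did so. In wild-type mice the counts were 17 and 1, beside 11.7% and 16.6% of all entries. Within each of the array batches all 14 calls in ApoE-/- mice and all 21 calls in wild-type mice kept their sign. These calls were made on the same arrays, so a shared sign is close to given and is no independent check. In the smaller batch alone 6 genes fell and 1 rose in ApoE-/- mice, and 14 fell and 2 rose in wild-type mice. Of all 12976 entries 407 fell and 634 rose there in ApoE-/- mice, and 1436 fell and 1989 rose in wild-type mice. In the larger batch alone 15 genes fell and 2 rose in ApoE-/- mice, and 19 fell and 2 rose in wild-type mice. Of all 12976 entries 1531 fell and 1979 rose there in ApoE-/- mice, and 1636 fell and 2235 rose in wild-type mice.

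**Figure D1:**
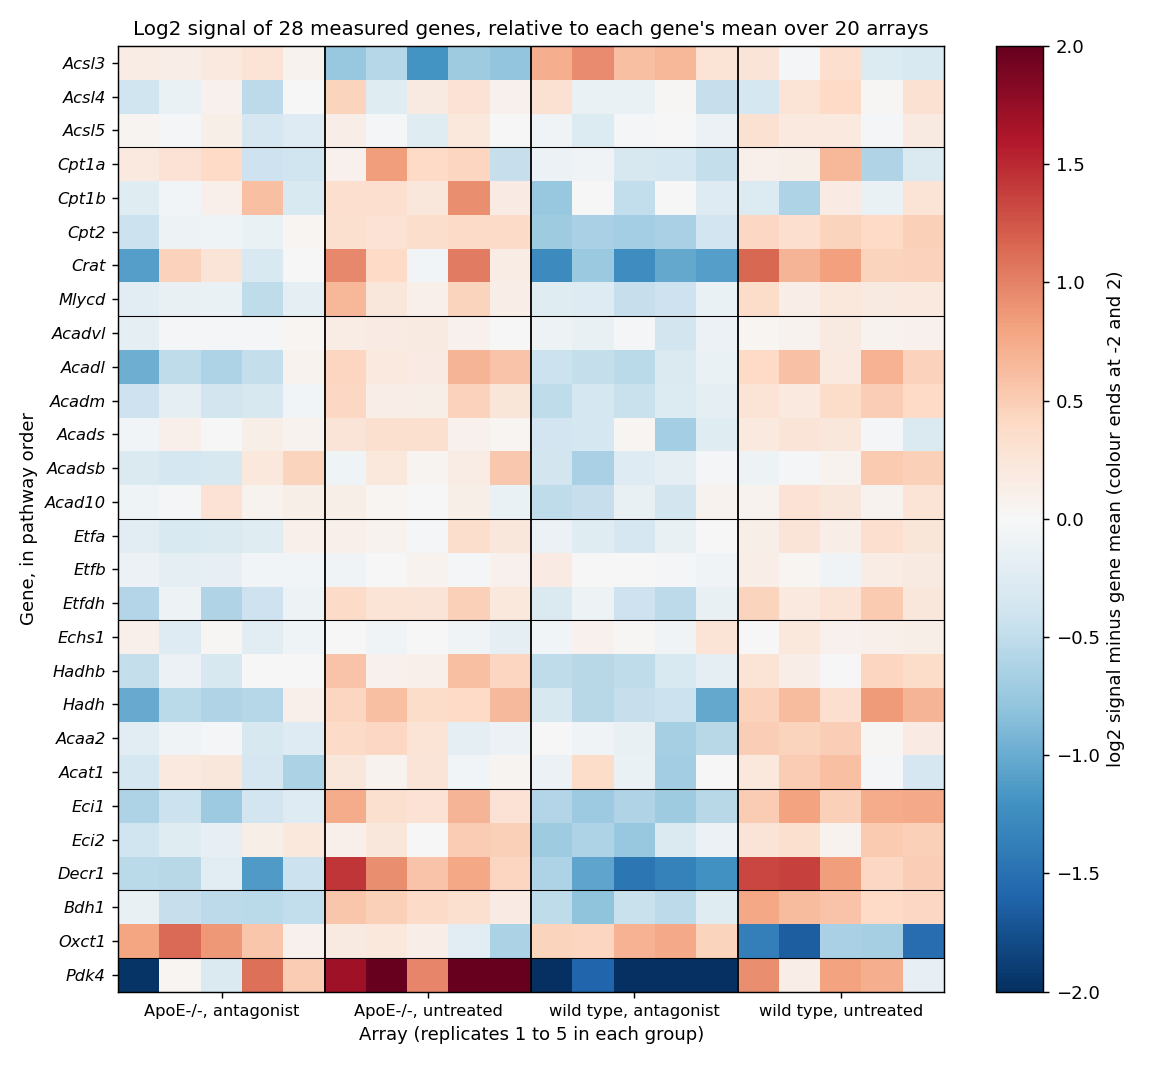
Log2 signal of the 28 measured genes (rows, in pathway order) on the 20 arrays (columns, replicates 1 to 5 of each group), shown as the difference from each gene's mean over all arrays and coloured from blue (lower) to red (higher). Most rows are lower on the antagonist arrays of both genotypes, and Acsl3 and Oxct1 run the other way.

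**Figure D2:**
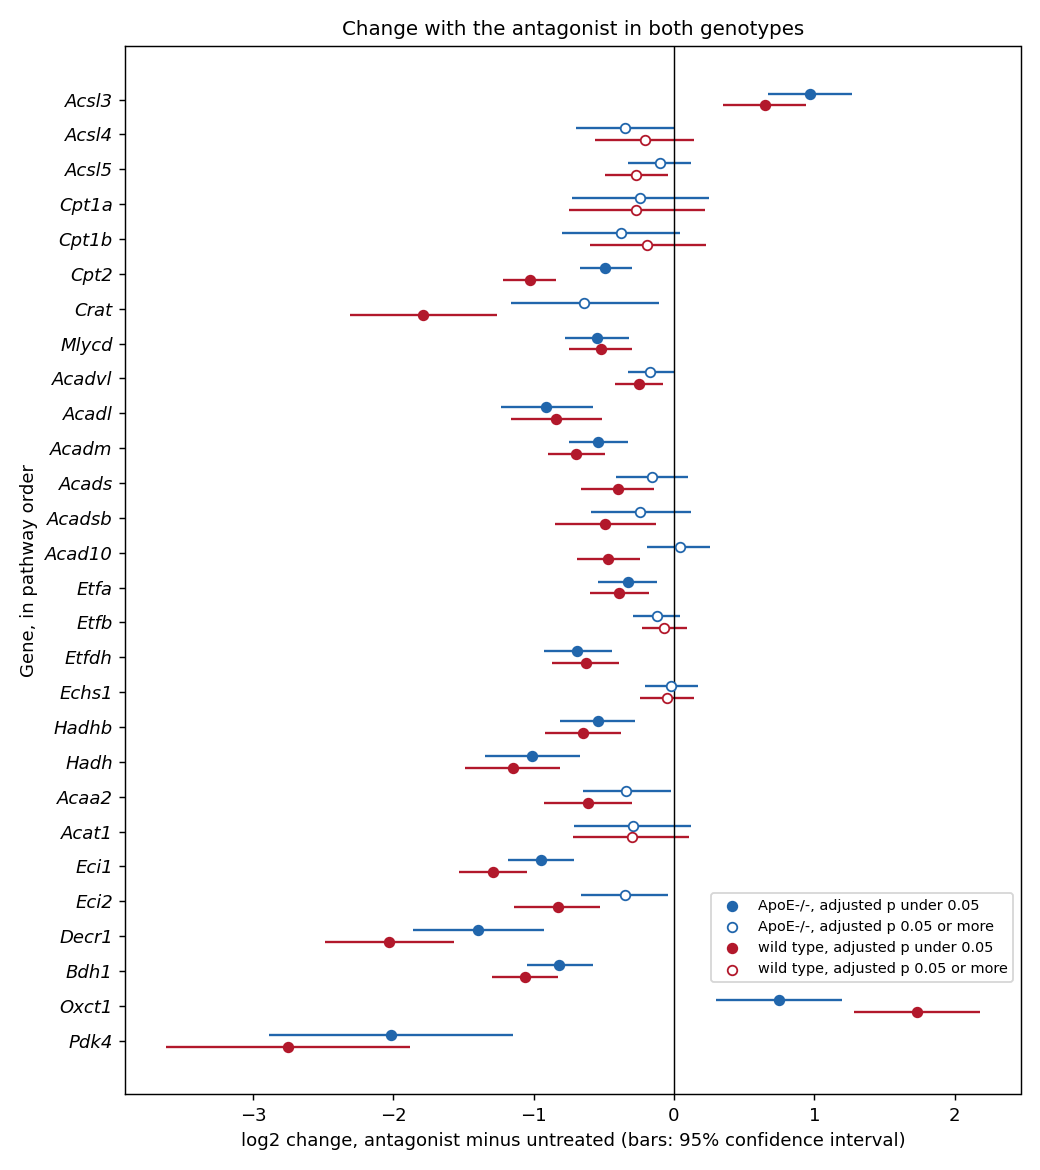
Log2 change with the antagonist (antagonist minus untreated, x axis) of each gene (y axis, in pathway order) in ApoE-/- and wild-type mice, with 95% confidence intervals as bars and filled points for an adjusted p under 0.05. Pdk4 lies farthest to the left in both genotypes, at -2.02 in ApoE-/- mice and -2.75 in wild-type mice.

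At the first step, activation, 1 of 3 measured synthetases changed, and it rose. Acsl3, which makes acyl-CoA mainly at the endoplasmic reticulum and lipid droplets, had log2 signals of 8.37, 8.36, 8.42, 8.50 and 8.30 on the antagonist arrays of ApoE-/- mice, against 7.47, 7.66, 7.02, 7.51 and 7.43 on the untreated arrays. The wild-type arrays read 8.95, 9.17, 8.82, 8.89 and 8.50 with antagonist, against 8.48, 8.18, 8.56, 7.95 and 7.92 without. The groups did not overlap in ApoE-/- mice and overlapped in wild-type mice. Acsl3 was 1.96-fold higher with the antagonist in ApoE-/- mice (log2 change 0.97 ± 0.14, adjusted p = 3.6e-05, ± SE here and below) and 1.57-fold higher in wild-type mice (0.65 ± 0.14, adjusted p = 0.00106). Acsl4, which prefers arachidonic acid, had changes that passed in neither genotype, -0.35 ± 0.17, adjusted p = 0.129 in ApoE-/- mice and -0.21 ± 0.17, adjusted p = 0.35 in wild-type mice. The changes of Acsl5, a synthetase of mitochondria and the endoplasmic reticulum, did not pass either, at -0.10 ± 0.11, adjusted p = 0.517 in ApoE-/- mice and -0.27 ± 0.11, adjusted p = 0.0558 in wild-type mice. The wild-type change of Acsl5 passed in the series matrix values (adjusted p = 0.0235), with an offset of 50 (adjusted p = 0.0361), with array batch as a block (adjusted p = 0.0443), with the wild-type groups fitted alone (adjusted p = 0.0455) and without replicate 4 of the untreated group (adjusted p = 0.0343). A dim Acsl5 probe, detected on 9 of 20 arrays, rose in wild-type mice (0.32, adjusted p = 0.0477 over all probes). Another Acsl5 probe gave -0.53 there and did not pass (adjusted p = 0.231).

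At the carnitine shuttle, 2 of 5 genes fell in ApoE-/- mice and 3 of 5 in wild-type mice. Cpt1a and Cpt1b, the outer-membrane transferases of liver and muscle type that are usually named as the rate-limiting step, were dim and passed in neither genotype. Cpt1a was detected on 3 of 5 arrays in each ApoE-/- group, and on 0 of 5 treated and 1 of 5 untreated wild-type arrays. Its change was -0.24 ± 0.23, adjusted p = 0.489, in ApoE-/- mice. No fold is given for wild-type mice, where both groups lay near background. Cpt1b had changes of -0.38 ± 0.20, adjusted p = 0.17, in ApoE-/- mice and -0.19 ± 0.20, adjusted p = 0.508, in wild-type mice.

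Cpt2, the inner-membrane transferase that turns acyl-carnitine back into acyl-CoA, fell in both genotypes, and less in ApoE-/- mice by the test of the difference given further on. Its log2 signals in ApoE-/- mice were 11.86, 12.20, 12.21, 12.16 and 12.34 with antagonist, against 12.61, 12.58, 12.65, 12.68 and 12.68 without. The wild-type signals were 11.58, 11.64, 11.61, 11.64 and 11.91 with antagonist, against 12.71, 12.63, 12.74, 12.69 and 12.77 without. In both genotypes all treated arrays lay below all untreated ones. The signal was 1.4-fold lower in ApoE-/- mice (-0.49 ± 0.09, adjusted p = 0.000349) and 2.04-fold lower in wild-type mice (-1.03 ± 0.09, adjusted p = 1.98e-08). A pair of further probes of Cpt2 gave -0.43 and -0.49 in ApoE-/- mice and -0.97 and -1.07 in wild-type mice. The 250 bases before the RefSeq start of Cpt2 (GRCm38.p6, chr4:107923590-107923839, minus strand, printed 5′ to 3′ in the direction of the gene) are shown for the gene whose difference between genotypes passed:
Cpt2: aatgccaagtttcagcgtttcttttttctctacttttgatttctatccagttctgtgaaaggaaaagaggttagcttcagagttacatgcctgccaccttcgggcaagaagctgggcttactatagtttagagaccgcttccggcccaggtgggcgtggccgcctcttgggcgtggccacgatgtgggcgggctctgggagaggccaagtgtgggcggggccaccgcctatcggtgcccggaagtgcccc
The hexamer AGGTCA and the spaced repeat AGGTCANAGGTCA, which contains it and is the arrangement that PPAR alpha is known to bind, were searched on both strands of such windows, the repeat with up to 2 mismatches. Neither is in the Cpt2 window. AGGTCA was in 4 of 30 windows of the listed genes (13.3%), where 14% of all 32851 promoter windows hold it, and the repeat in 2 of 30 (6.7%), where 3.2% of all windows do. These windows belong to 28 of the listed genes.

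Crat, carnitine acetyltransferase, which exchanges acetyl groups between CoA and carnitine, fell in wild-type mice. The ApoE-/- arrays read 6.68, 8.25, 8.05, 7.49 and 7.78 with antagonist, against 8.75, 8.18, 7.73, 8.83 and 7.94 without. The wild-type arrays read 6.51, 7.05, 6.55, 6.76 and 6.69 with antagonist, against 8.94, 8.47, 8.61, 8.23 and 8.25 without. Groups overlapped in ApoE-/- mice and not in wild-type mice. Replicate 1 of the treated ApoE-/- group, at 6.68, lay inside the treated wild-type range, and the other 4 of its group lay above that range. In ApoE-/- mice the change did not pass (-0.64 ± 0.25, adjusted p = 0.0612), and without that replicate it was -0.39 (adjusted p = 0.193). It passed without replicate 2 or 3 of the treated or replicate 3 or 5 of the untreated ApoE-/- group (adjusted p as low as 0.0274), and as the mean of both probes (-0.64, adjusted p = 0.00621). In wild-type mice Crat was 3.45-fold lower (-1.79 ± 0.25, adjusted p = 9.07e-06). A dimmer second probe of Crat gave -0.63 in ApoE-/- mice and -0.73 in wild-type mice (adjusted p = 0.00994 and 0.00254 over all probes). In each genotype that probe was detected on 0 of 5 treated and 4 of 5 untreated arrays, so the sizes of its falls are uncertain.

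Mlycd, malonyl-CoA decarboxylase, removes the malonyl-CoA that inhibits the outer transferase, and it fell in both genotypes. Its ApoE-/- arrays read 10.05, 10.11, 10.12, 9.75 and 10.07 with antagonist, against 10.92, 10.48, 10.36, 10.70 and 10.39 without. Its wild-type arrays read 10.01, 9.99, 9.80, 9.84 and 10.12 with antagonist, against 10.62, 10.39, 10.47, 10.44 and 10.45 without. Groups did not overlap in either genotype. Mlycd was 1.47-fold lower in ApoE-/- mice (-0.55 ± 0.11, adjusted p = 0.000678) and 1.44-fold lower in wild-type mice (-0.52 ± 0.11, adjusted p = 0.000699).

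The acyl-CoA dehydrogenases open each round of oxidation and differ in the chain length they take. They fell in 2 of 6 measured cases in ApoE-/- mice and in 6 of 6 in wild-type mice, where 13.3% and 16.7% of all entries fell. The test of the difference between the genotypes' changes passed for 0 of these 6. Of the wild-type calls 4 were lost under median scaling of the arrays, where Acad10 changed by -0.10, Acadvl by -0.15, Acads by -0.16 and Acadsb by -0.37 (adjusted p = 0.617, 0.352, 0.334 and 0.177). Those called in both were Acadm (medium chains) and Acadl (long chains). Acadm read 12.43, 12.66, 12.48, 12.52 and 12.79 with antagonist, against 13.25, 12.97, 12.96, 13.31 and 13.08 without, in ApoE-/- mice. For wild-type mice it read 12.34, 12.49, 12.40, 12.57 and 12.65 with antagonist, against 13.12, 13.04, 13.21, 13.34 and 13.24 without. The groups were apart in both genotypes, by a 1.45-fold lower signal in ApoE-/- mice (-0.54 ± 0.10, adjusted p = 0.000332) and a 1.62-fold lower signal in wild-type mice (-0.70 ± 0.10, adjusted p = 1.08e-05).

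Acadl read 8.25, 8.72, 8.61, 8.76 and 9.31 with antagonist, against 9.66, 9.43, 9.39, 9.92 and 9.80 without, in ApoE-/- mice. On wild-type arrays it read 8.81, 8.76, 8.69, 8.94 and 9.10 with antagonist, against 9.63, 9.82, 9.43, 9.93 and 9.70 without. These groups did not overlap in either genotype, and the fall was 1.88-fold in ApoE-/- mice (-0.91 ± 0.16, adjusted p = 0.000176) and 1.79-fold in wild-type mice (-0.84 ± 0.16, adjusted p = 0.000218). The other 2 detected probes of Acadl gave smaller changes, of -0.44 and -0.38 in ApoE-/- mice (adjusted p = 0.151 and 0.0351 over all probes) and -0.40 and -0.54 in wild-type mice (adjusted p = 0.176 and 0.00302). Acad10, a little-studied family member, read 8.07, 8.11, 8.44, 8.23 and 8.27 with antagonist, against 8.28, 8.19, 8.15, 8.28 and 8.03 without, in ApoE-/- mice. Its wild-type arrays read 7.65, 7.70, 8.01, 7.79 and 8.22 with antagonist, against 8.22, 8.44, 8.39, 8.22 and 8.43 without. The Acad10 groups overlapped in ApoE-/- mice, with a change that did not pass (0.04 ± 0.11, adjusted p = 0.843). In wild-type mice they met at 8.22 within rounding without overlapping, and the signal was 1.38-fold lower (-0.47 ± 0.11, adjusted p = 0.0018).

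Acadvl (very long chains) changed by -0.17 ± 0.08, adjusted p = 0.12, in ApoE-/- mice and fell in wild-type mice (-0.25 ± 0.08, adjusted p = 0.0164). Acads (short chains) changed by -0.16 ± 0.12, adjusted p = 0.378, in ApoE-/- mice and fell in wild-type mice (-0.40 ± 0.12, adjusted p = 0.0135). A second, dimmer Acads probe gave -0.73 in ApoE-/- mice and -0.95 in wild-type mice and passed in both (adjusted p = 0.00666 and 0.00053 over all probes). Acadsb, which takes branched short chains from isoleucine, changed by -0.24 ± 0.17, adjusted p = 0.337, in ApoE-/- mice and fell in wild-type mice (-0.49 ± 0.17, adjusted p = 0.0287). The wild-type call of Acadsb was lost when any of 4 arrays was left out (adjusted p up to 0.0877), and that of Acadvl without replicate 4 of the treated group (adjusted p = 0.0585).

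Of the 3 electron transfer genes 2 fell in both genotypes. Etfdh, the membrane enzyme that passes electrons to ubiquinone, read 10.35, 10.83, 10.33, 10.53 and 10.83 with antagonist, against 11.32, 11.22, 11.19, 11.42 and 11.15 without, in ApoE-/- mice. In wild-type mice it read 10.65, 10.84, 10.53, 10.42 and 10.79 with antagonist, against 11.38, 11.14, 11.22, 11.47 and 11.17 without. It did not overlap in either genotype and was 1.61-fold lower in ApoE-/- mice (-0.69 ± 0.12, adjusted p = 0.000162) and 1.55-fold lower in wild-type mice (-0.63 ± 0.12, adjusted p = 0.000211). Etfa and Etfb are the subunits of electron transfer flavoprotein. Etfa read 12.87, 12.78, 12.80, 12.84 and 13.19 with antagonist, against 13.19, 13.15, 13.05, 13.44 and 13.32 without, in ApoE-/- mice. The wild-type arrays of Etfa read 12.97, 12.84, 12.75, 12.94 and 13.09 with antagonist, against 13.20, 13.35, 13.22, 13.43 and 13.33 without. The groups of Etfa overlapped in ApoE-/- mice (1.26-fold lower, -0.33 ± 0.10, adjusted p = 0.0151) and were apart in wild-type mice (1.31-fold lower, -0.39 ± 0.10, adjusted p = 0.00389). The ApoE-/- call was lost with those groups fitted alone (adjusted p = 0.0532) and the wild-type call with the mean of the gene's probes (adjusted p = 0.0687). Etfb passed in neither genotype, with -0.12 ± 0.08, adjusted p = 0.249 in ApoE-/- mice and -0.07 ± 0.08, adjusted p = 0.494 in wild-type mice.

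The windows of Etfa and of Echs1, an enoyl-CoA hydratase, are shown because no other window of the listed genes held a match to the spaced repeat. The match is set in capitals (Etfa chr9:55512244-55512493 and Echs1 chr7:140116422-140116671, both RefSeq GRCm38.p6 and on the minus strand):
Etfa: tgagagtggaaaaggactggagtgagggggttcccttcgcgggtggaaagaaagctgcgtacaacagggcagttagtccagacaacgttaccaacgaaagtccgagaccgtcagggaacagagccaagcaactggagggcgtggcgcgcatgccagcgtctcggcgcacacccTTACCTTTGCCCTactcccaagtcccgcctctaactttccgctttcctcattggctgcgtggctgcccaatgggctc
Echs1: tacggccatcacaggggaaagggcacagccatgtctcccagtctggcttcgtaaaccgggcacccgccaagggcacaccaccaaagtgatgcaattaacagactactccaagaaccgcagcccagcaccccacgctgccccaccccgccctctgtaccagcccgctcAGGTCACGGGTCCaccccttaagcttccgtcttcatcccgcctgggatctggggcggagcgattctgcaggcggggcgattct
The site of Etfa begins 77 bases before the start and is read on the opposite strand, and that of Echs1 begins 83 bases before the start. Each has 2 mismatches. Etfa fell, and Echs1 did not pass in either genotype, with -0.02 ± 0.09, adjusted p = 0.9 in ApoE-/- mice and -0.05 ± 0.09, adjusted p = 0.701 in wild-type mice. A match is a string of letters and was not tested as a binding site.

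Of the 5 measured genes of hydration, the second dehydrogenation and thiolysis, 2 fell in ApoE-/- mice and 3 in wild-type mice. Hadh, the dehydrogenase of medium and short hydroxyacyl chains, read 6.10, 6.57, 6.50, 6.54 and 7.21 with antagonist, against 7.53, 7.71, 7.47, 7.50 and 7.75 without, in ApoE-/- mice. On the wild-type side it read 6.78, 6.55, 6.64, 6.67 and 6.08 with antagonist, against 7.57, 7.73, 7.44, 7.96 and 7.78 without. Neither pair of groups overlapped, with a fall of 2.01-fold in ApoE-/- mice (-1.01 ± 0.16, adjusted p = 9.6e-05) and 2.22-fold in wild-type mice (-1.15 ± 0.16, adjusted p = 9.92e-06).

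Hadhb, the thiolase subunit of the trifunctional protein for long chains, read 11.73, 12.08, 11.88, 12.20 and 12.21 with antagonist, against 12.78, 12.29, 12.31, 12.80 and 12.63 without, in ApoE-/- mice. Hadhb in wild-type mice read 11.70, 11.65, 11.70, 11.90 and 12.02 with antagonist, against 12.48, 12.33, 12.20, 12.63 and 12.57 without. It did not overlap in either genotype and was 1.46-fold lower in ApoE-/- mice (-0.54 ± 0.13, adjusted p = 0.00298) and 1.57-fold lower in wild-type mice (-0.65 ± 0.13, adjusted p = 0.000421). Hadhb and its partner Hadha, which did not pass the detection filter, start from a shared stretch of DNA in opposite directions, so the window before Hadhb (chr5:30155003-30155252, plus strand, RefSeq GRCm38.p6) overlaps that of Hadha (chr5:30154981-30155230, minus strand). It is shown for that arrangement and holds neither motif:
Hadhb: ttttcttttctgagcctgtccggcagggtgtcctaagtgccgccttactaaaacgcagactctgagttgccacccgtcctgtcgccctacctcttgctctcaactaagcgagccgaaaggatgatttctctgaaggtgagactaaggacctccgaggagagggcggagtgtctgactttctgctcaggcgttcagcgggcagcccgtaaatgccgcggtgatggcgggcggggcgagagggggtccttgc

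Acaa2, the thiolase of medium and short chains, read 11.67, 11.82, 11.85, 11.57 and 11.63 with antagonist, against 12.28, 12.31, 12.16, 11.71 and 11.77 without, in ApoE-/- mice. Its wild-type arrays gave 11.89, 11.82, 11.74, 11.22 and 11.33 with antagonist, against 12.38, 12.34, 12.38, 11.91 and 12.05 without. Groups overlapped in ApoE-/- mice, where the change did not pass (-0.34 ± 0.15, adjusted p = 0.0988), and were apart in wild-type mice (1.53-fold lower, -0.61 ± 0.15, adjusted p = 0.00256). Replicates 4 and 5, a batch of their own, were lower than replicates 1 to 3 in all 4 groups on this probe. With the replicate number as a block the ApoE-/- change of -0.34 passed (adjusted p = 0.0047), as it did without replicate 4 of the untreated group (adjusted p = 0.0467). The other 3 probes of Acaa2, which the rule of the brightest probe set aside, gave changes of -0.93, -0.95 and -0.88 in ApoE-/- mice and -0.95, -1.02 and -1.04 in wild-type mice. In ApoE-/- mice these probes all passed (adjusted p = 8.23e-06, 1.43e-05 and 2.9e-05 over all probes). As the mean of its probes Acaa2 fell in ApoE-/- mice (-0.77, adjusted p = 8.52e-06). The counts of calls use the brightest probe, so Acaa2 is not counted as called there. Acat1, a thiolase that also makes acetoacetyl-CoA, passed in neither genotype, with -0.29 ± 0.20, adjusted p = 0.3 in ApoE-/- mice and -0.30 ± 0.20, adjusted p = 0.249 in wild-type mice.

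The 3 enzymes that deal with unsaturated chains had a median change of -0.95 in ApoE-/- mice and -1.29 in wild-type mice. Eci1 and Eci2 are isomerases that move a double bond, and Decr1 is a reductase that removes one. Eci1 read 10.93, 11.11, 10.82, 11.16 and 11.29 with antagonist, against 12.29, 11.86, 11.83, 12.22 and 11.84 without, in ApoE-/- mice. Among wild-type arrays Eci1 read 10.96, 10.82, 10.95, 10.83 and 10.99 with antagonist, against 12.06, 12.35, 12.02, 12.29 and 12.30 without. The groups did not overlap in either genotype, with a 1.93-fold lower signal in ApoE-/- mice (-0.95 ± 0.11, adjusted p = 4.96e-06) and a 2.45-fold lower signal in wild-type mice (-1.29 ± 0.11, adjusted p = 2.18e-08).

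Decr1 read 6.39, 6.37, 6.71, 5.80 and 6.50 with antagonist, against 8.35, 7.85, 7.49, 7.70 and 7.35 without, in ApoE-/- mice. Its wild-type values were 6.31, 5.88, 5.48, 5.57 and 5.71 with antagonist, against 8.26, 8.30, 7.77, 7.34 and 7.42 without. No array of a treated group reached its untreated group, and the fall was 2.63-fold in ApoE-/- mice (-1.40 ± 0.22, adjusted p = 8.36e-05) and 4.08-fold in wild-type mice (-2.03 ± 0.22, adjusted p = 3.96e-07). Eci2 read 11.58, 11.74, 11.81, 12.09 and 12.19 with antagonist, against 12.08, 12.20, 11.96, 12.48 and 12.45 without, in ApoE-/- mice. Its wild-type values were 11.27, 11.36, 11.22, 11.68 and 11.85 with antagonist, against 12.24, 12.30, 12.05, 12.50 and 12.45 without. In ApoE-/- mice the Eci2 groups overlapped and the change did not pass (-0.35 ± 0.15, adjusted p = 0.0792), but it did with the replicate number as a block (adjusted p = 0.0021) and without replicate 5 of the treated or 3 of the untreated group (adjusted p as low as 0.0345). In wild-type mice they did not overlap (1.78-fold lower, -0.83 ± 0.15, adjusted p = 0.000125).

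The 2 measured ketone body genes moved in opposite directions. Bdh1, which interconverts acetoacetate and beta-hydroxybutyrate, read 9.98, 9.66, 9.60, 9.58 and 9.64 with antagonist, against 10.68, 10.61, 10.51, 10.45 and 10.29 without, in ApoE-/- mice. Its wild-type arrays gave 9.62, 9.32, 9.68, 9.60 and 9.88 with antagonist, against 10.90, 10.76, 10.69, 10.53 and 10.54 without. The groups were apart in both genotypes, with falls of 1.76-fold in ApoE-/- mice (-0.82 ± 0.11, adjusted p = 2.07e-05) and 2.09-fold in wild-type mice (-1.06 ± 0.11, adjusted p = 2.83e-07). A dimmer second probe of Bdh1 gave -0.88 in ApoE-/- mice and -1.32 in wild-type mice.

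Oxct1, the CoA transferase with which tissues other than liver burn ketone bodies, read 7.14, 7.49, 7.22, 6.91 and 6.44 with antagonist, against 6.53, 6.56, 6.49, 6.14 and 5.72 without, in ApoE-/- mice. The wild-type arrays of Oxct1 gave 6.80, 6.78, 7.05, 7.11 and 6.80 with antagonist, against 4.98, 4.70, 5.70, 5.69 and 4.83 without. It was detected on 2 of 5 untreated wild-type arrays and on 5 of 5 arrays of every other group. Its untreated wild-type signal thus lay near background, and the size of the wild-type rise is uncertain. Groups overlapped in ApoE-/- mice (1.68-fold higher, 0.75 ± 0.22, adjusted p = 0.0117) and did not overlap in wild-type mice (3.31-fold higher, 1.73 ± 0.22, adjusted p = 2.2e-06). A second probe gave 0.21 in ApoE-/- mice (adjusted p = 0.501 over all probes) and 0.84 in wild-type mice (adjusted p = 0.00327). The mean of both probes changed by 0.48 in ApoE-/- mice and did not pass (adjusted p = 0.0535).

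Pdk4, the kinase that switches off pyruvate dehydrogenase when fat is burned and a known PPAR alpha target, had the largest fall of the 28 genes in both genotypes and the largest spread. Its ApoE-/- arrays read 6.80, 8.80, 8.48, 9.86 and 9.28 with antagonist, against 10.46, 10.89, 9.74, 11.42 and 10.81 without. Its wild-type arrays read 6.50, 7.18, 6.03, 6.63 and 6.16 with antagonist, against 9.70, 8.89, 9.57, 9.49 and 8.60 without, with no overlap. In ApoE-/- mice the treated replicate 4, at 9.86, lay above the lowest untreated array, at 9.74, and the treated replicate 1, at 6.80, lay inside the treated wild-type range. Pdk4 was 4.05-fold lower in ApoE-/- mice (-2.02 ± 0.42, adjusted p = 0.000949) and 6.73-fold lower in wild-type mice (-2.75 ± 0.42, adjusted p = 2.27e-05). Without replicate 1 of the treated ApoE-/- group the ApoE-/- change was -1.55 (adjusted p = 0.00142). The pooled within-group SD of Pdk4 was 0.73, followed by 0.43 for Crat and 0.40 for Cpt1a. The window before Pdk4 (chr6:5496279-5496528, minus strand, RefSeq GRCm38.p6) is shown for the gene with the widest response and holds neither motif:
Pdk4: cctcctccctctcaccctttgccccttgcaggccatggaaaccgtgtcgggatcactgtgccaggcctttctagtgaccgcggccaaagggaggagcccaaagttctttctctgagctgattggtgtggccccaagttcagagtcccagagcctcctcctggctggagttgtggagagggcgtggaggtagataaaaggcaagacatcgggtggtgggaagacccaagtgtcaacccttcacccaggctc

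**Figure D3:**
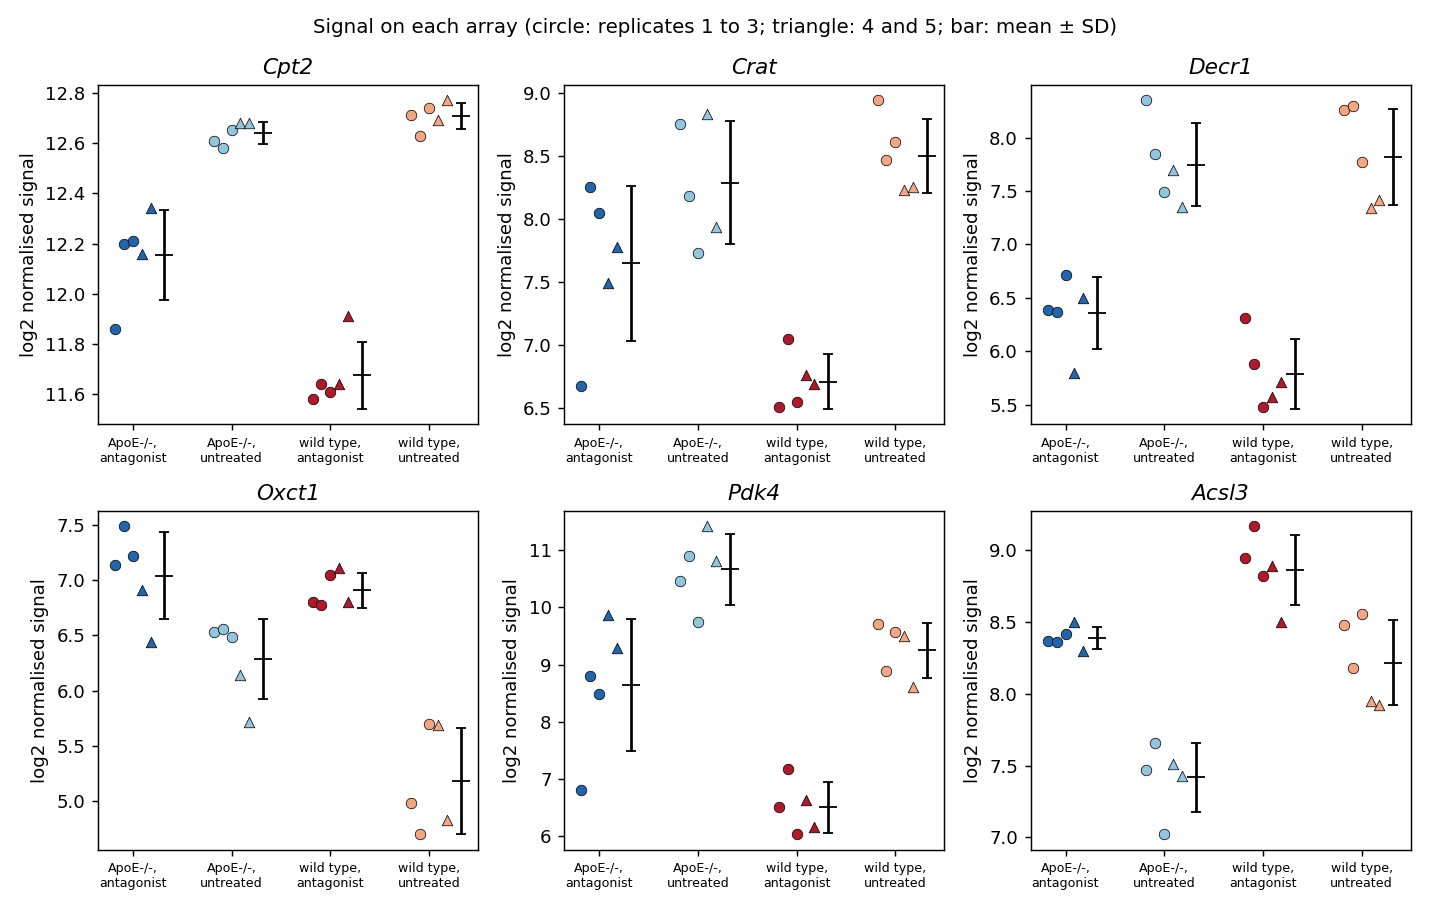
Log2 normalised signal (y axis) on each array for Cpt2, Crat, Decr1, Oxct1, Pdk4 and Acsl3, with the treated group left of the untreated group of each genotype, circles for replicates 1 to 3, triangles for replicates 4 and 5, and bars for the mean ± SD of 5 arrays. In ApoE-/- mice the groups do not overlap for Cpt2, Decr1 and Acsl3, and in wild-type mice they do not overlap for any of these genes but Acsl3.

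The changes with the antagonist were smaller in size in ApoE-/- than in wild-type mice for 21 of 28 genes. The share over all entries was not counted, so this number has no background beside it. The difference between the genotypes' changes was itself tested for each gene and passed for 1 of 28 genes (3.57%), where 2.74% of all entries passed (1.86% lower and 0.886% higher), so the count is near the background. That gene was Cpt2, with a difference of 0.54 ± 0.13, adjusted p = 0.0227 (ApoE-/- minus wild type). It held without any single array (adjusted p at most 0.0475). Within the batches the difference was 0.55 and 0.53, without passing in either (adjusted p = 0.168 and 0.21), and with arrays scaled to equal medians it was 0.49 and did not pass (adjusted p = 0.213). The other probes of Cpt2 had adjusted p of 0.0663 and 0.124 over all probes. Crat had a difference of 1.15 ± 0.35, adjusted p = 0.0928, and without replicate 1 of the treated ApoE-/- group it was 1.39 (adjusted p = 0.00972). Its second probe gave a difference of 0.10. That probe was detected on 0 of 5 treated arrays in either genotype, so it cannot show whether the changes differed. With the replicate number as a block Eci2 (0.48, adjusted p = 0.0197) and Oxct1 (-0.98, adjusted p = 0.0386) also passed, making 3 of 28. In that fit 581 of all 12976 entries passed, in place of 356. Oxct1 passed as well under median scaling of the arrays (-1.18, adjusted p = 0.0369) and without replicate 5 of the untreated ApoE-/- group (adjusted p = 0.0463), and Acad10 without replicate 5 of the treated wild-type group (adjusted p = 0.0326).

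The comparisons of ApoE-/- with wild-type mice use the same arrays as the antagonist comparisons, so their values are given side by side only. Without antagonist 2 of 28 genes differed, beside 5.52% of all entries (1.39% lower and 4.13% higher). Acsl3 was 1.74-fold lower in untreated ApoE-/- than in untreated wild-type mice (-0.80 ± 0.14, adjusted p = 0.00108) and Oxct1 was 2.16-fold higher (1.11 ± 0.22, adjusted p = 0.00235). A second probe of Oxct1 gave 0.5 and did not pass (adjusted p = 0.231 over all probes). Oxct1 was detected on 2 of 5 untreated wild-type arrays, near background, so the size of its fold is uncertain. Arrays did not overlap for 2 genes on the lower side (Acsl3 and Echs1) and 2 on the higher side (Oxct1 and Pdk4), where 2.14% and 4.5% of all entries did not. Echs1 was not called (-0.17 ± 0.09, adjusted p = 0.37). In the batch of replicates 4 and 5 these groups lay on different slides, by the column names. In that batch alone the changes of Acsl3 and Oxct1 were -0.46 and 0.67 and did not pass (adjusted p = 0.225 and 0.34). Pdk4 had a change that missed the threshold (1.41 ± 0.42, adjusted p = 0.0514). It passed without replicate 3 of the untreated ApoE-/- group (adjusted p = 0.0279), the only array whose removal did so. Median scaling (adjusted p = 0.0203), the series matrix (0.0193), an offset of 50 (0.0274) and array batch as a block (0.0355) gave a pass too. So did these groups alone (0.0178) and the batch of replicates 4 and 5 alone (2.07, adjusted p = 0.043). Replicates 1 to 3 alone, no detection filter and the mean of probes did not.

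With antagonist 3 of 28 genes were higher in ApoE-/- than in wild-type mice, beside 5.08% of all entries called (2.15% lower and 2.93% higher). They were Pdk4 (2.15 ± 0.42, adjusted p = 0.00443), Cpt2 (0.48 ± 0.09, adjusted p = 0.00353) and Crat (0.94 ± 0.25, adjusted p = 0.0322). All 3 had overlapping arrays, and of the 28 genes only Acsl3, lower in ApoE-/- mice, did not overlap, where 2.13% of all entries on the lower and 2.37% on the higher side did not. Crat missed the threshold when any of 8 arrays was left out (adjusted p up to 0.0948), without the detection filter (adjusted p = 0.0672), with the treated groups fitted alone (adjusted p = 0.0624) and as the mean of its probes (0.44, adjusted p = 0.149). The dimmer of these probes was detected on 0 of 5 arrays of either treated group. With arrays scaled to equal medians neither Cpt2 (0.45, adjusted p = 0.0954) nor Crat (0.75, adjusted p = 0.0804) passed, and Acsl3 did (-0.60, adjusted p = 0.0124). With the replicate number as a block 8 genes passed, where 1033 of all 12976 entries did, in place of 659. The additions were Acsl3 (-0.48, adjusted p = 0.0397), Acads (0.37, adjusted p = 0.0465), Acad10 (0.35, adjusted p = 0.0485), Eci2 (0.41, adjusted p = 0.0045) and Decr1 (0.56, adjusted p = 0.0472).

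The lowest of the 4 group means was that of treated ApoE-/- mice for 8 of the 28 genes, of untreated ApoE-/- mice for 1 (Acsl3), of treated wild-type mice for 18 and of untreated wild-type mice for 1 (Oxct1). Of the 18 genes with several detected probes, probes shared a sign for 12 in ApoE-/- mice and 13 in wild-type mice. The widest gap between a gene's probes was 0.97 for Etfdh in ApoE-/- mice and 1.06 for Crat in wild-type mice. Probes of opposite sign belonged to Acad10, Acsl4, Cpt1b, Echs1, Etfb and Etfdh in ApoE-/- mice and to Acsl4, Acsl5, Cpt1b, Echs1 and Etfdh in wild-type mice.

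**Figure D4:**
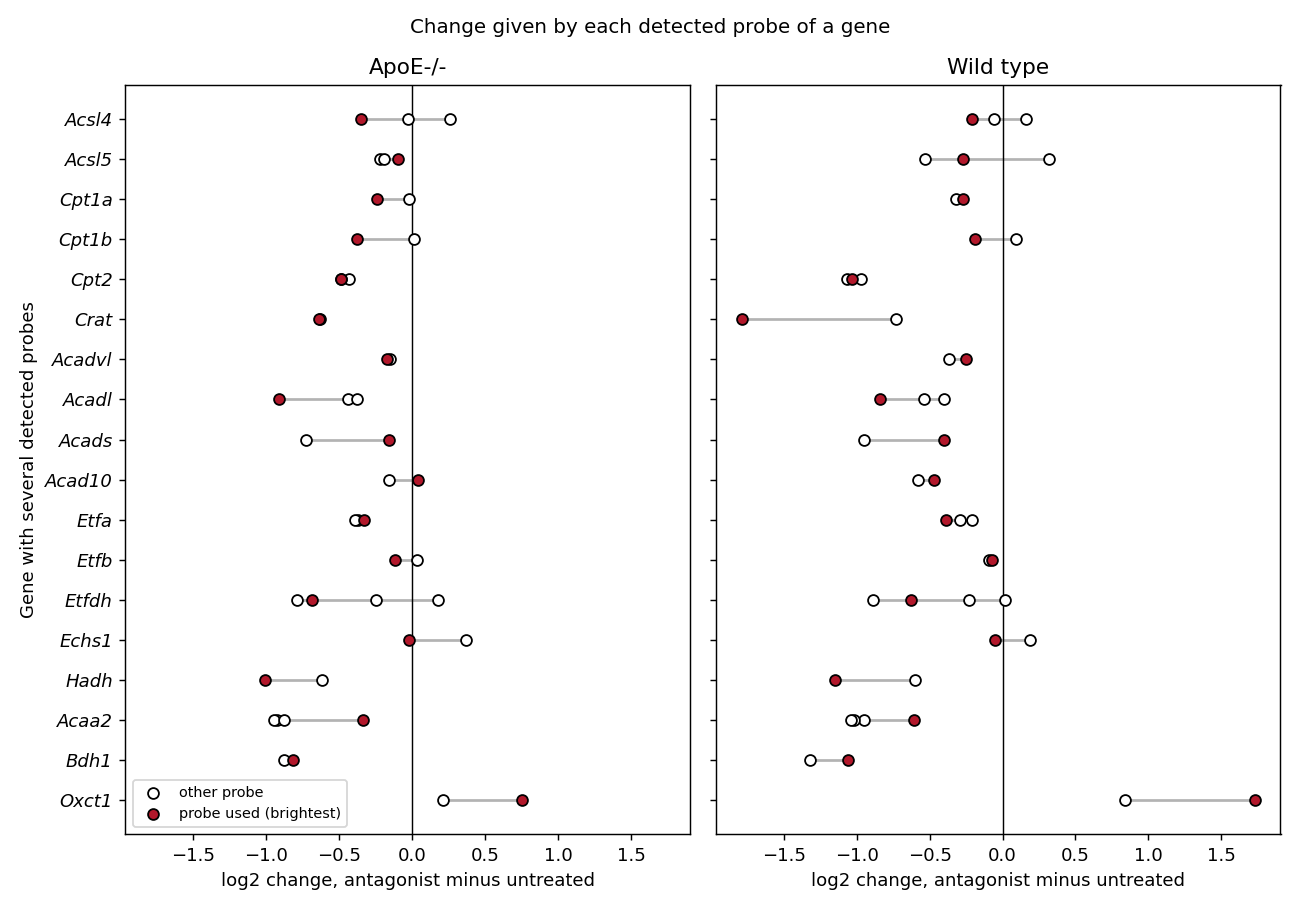
Log2 change with the antagonist (antagonist minus untreated, x axis) from each detected probe of the 18 genes with several probes (y axis), in ApoE-/- and wild-type mice, with the probe used filled and the others open. Probes of Cpt2 and Bdh1 lie close together in ApoE-/- mice, while those of Etfdh in both genotypes and of Crat in wild-type mice spread widely.

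Other genes of the pathway, which are not among the 33, had falls too. Of 20 measured of 25 listed, 7 fell and 1 rose in ApoE-/- mice, with a median change of -0.20, and 9 fell and 1 rose in wild-type mice, with a median of -0.43. Over all entries 13.3% fell and 16.3% rose in ApoE-/- mice, and 16.7% fell and 21.7% rose in wild-type mice. These shares also stand beside the lists that follow. Slc25a20, the carnitine-acylcarnitine carrier, fell in both (-0.50 ± 0.12, adjusted p = 0.00266 in ApoE-/- and -1.10 ± 0.12, adjusted p = 2.93e-07 in wild-type mice). Slc22a5, the carnitine importer, did so too (-0.59 ± 0.22, adjusted p = 0.0486 in ApoE-/- and -1.63 ± 0.22, adjusted p = 5.16e-06 in wild-type mice). Further falls in both were those of Acad8, a dehydrogenase of valine breakdown (-0.84 in ApoE-/- and -0.73 in wild-type mice), Gcdh, of lysine breakdown (-0.40 and -0.49), and Acsf2, a synthetase (-0.75 and -1.26). Acss1, which activates acetate in mitochondria, rose (2.54 ± 0.24, adjusted p = 4.47e-07 in ApoE-/- and 3.36 ± 0.24, adjusted p = 1.65e-09 in wild-type mice). It was detected on 5 of 5 treated arrays in both genotypes, against 2 of 5 untreated ApoE-/- and 1 of 5 untreated wild-type arrays, so its untreated signal lay near background and the size of the rise is uncertain.

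Among 15 measured of 16 listed regulators 4 fell and 2 rose in ApoE-/- mice, and 9 fell and 3 rose in wild-type mice. Ppara, the receptor itself, fell in both (-0.45 ± 0.13, adjusted p = 0.0103 in ApoE-/- and -1.29 ± 0.13, adjusted p = 8.27e-08 in wild-type mice), and the difference passed (0.84 ± 0.18, adjusted p = 0.0119). Fgf21, a fasting hormone, fell in both genotypes (-1.33 in ApoE-/- and -2.31 in wild-type mice), as did Creb3l3, a liver transcription factor (-0.59 and -1.06), and Prkaa2, a catalytic subunit of AMP kinase (-0.61 and -0.85). Ppard rose in both, by 1.00 in ApoE-/- mice and 0.65 in wild-type mice. Sirt1 changed by -0.15 in ApoE-/- mice (adjusted p = 0.393) and fell in wild-type mice (-0.58 ± 0.12, adjusted p = 0.000884).

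Other mitochondrial genes, fixed as a set beside the pathway, gave median changes of 0.02 in ApoE-/- mice and -0.03 in wild-type mice. Of 12 measured of 16 listed, Hspd1 and Tfam fell and Idh3a rose in ApoE-/- mice, and Hspd1 and Tfam fell in wild-type mice. The falls were 16.7% of the 12 genes in each genotype, where 13.3% of all entries fell in ApoE-/- and 16.7% in wild-type mice. All 11 hepatocyte markers were measured, and 2 rose in ApoE-/- mice (Cps1 by 0.51, Tat by 1.10) and 1 in wild-type mice (Cps1 by 0.68), with medians of -0.01 and -0.06. Their summed log2 signal was 17.45 to 17.60 in treated and 17.52 to 17.58 in untreated ApoE-/- mice, and 17.43 to 17.56 in treated and 17.48 to 17.59 in untreated wild-type mice. Very bright probes carry this sum, such as Apoa2 at group means of 15.23 to 15.26, and quantile normalization leaves them little room to move. The sum therefore cannot show whether the share of hepatocytes changed.

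Markers of some other cells changed in the same comparison. Over all entries 16.3% rose in ApoE-/- mice and 21.7% in wild-type mice. In ApoE-/- mice the rises were 16.7% of endothelial, 14.3% of stellate and 0% of neutrophil markers, near or below that share. Of 11 measured of 13 listed macrophage markers 7 rose and 1 fell in ApoE-/- mice and 8 rose and 1 fell in wild-type mice, with median changes of 1.18 and 1.96. Their summed log2 signal was 13.55 to 14.18 in treated and 13.10 to 13.42 in untreated ApoE-/- mice, and 13.38 to 13.80 in treated and 11.46 to 12.10 in untreated wild-type mice. Clec4f, Timd4 and Vsig4 did not rise in wild-type mice (-0.26, -0.86 and 0.02), where Timd4 fell (adjusted p = 0.00253). In ApoE-/- mice they changed by -0.07, -0.37 and -0.41, and Vsig4 fell (adjusted p = 0.0489). Of 6 endothelial markers 1 rose and 1 fell in ApoE-/- mice, and 4 rose in wild-type mice. Of 7 stellate and fibroblast markers 1 rose in ApoE-/- mice and 4 in wild-type mice, and of 4 neutrophil markers 0 rose in ApoE-/- mice and 3 in wild-type mice. Of 3 erythroid markers 1 rose and 1 fell in ApoE-/- mice, and 2 rose and 1 fell in wild-type mice. Of 5 adipocyte genes Cidec, a lipid droplet protein that fatty hepatocytes also express, was measured and fell, with changes of -2.36 in ApoE-/- mice and -2.14 in wild-type mice. Adiponectin and perilipin (Adipoq, Plin1) were each detected on at most 1 array and Fabp4 on 0, and of 5 skeletal muscle genes Ckm was detected on 2 arrays, Tnnt3 on 1 and the others on 0. The part of these cell markers in the changes of the pathway genes was not tested.

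**Figure D5:**
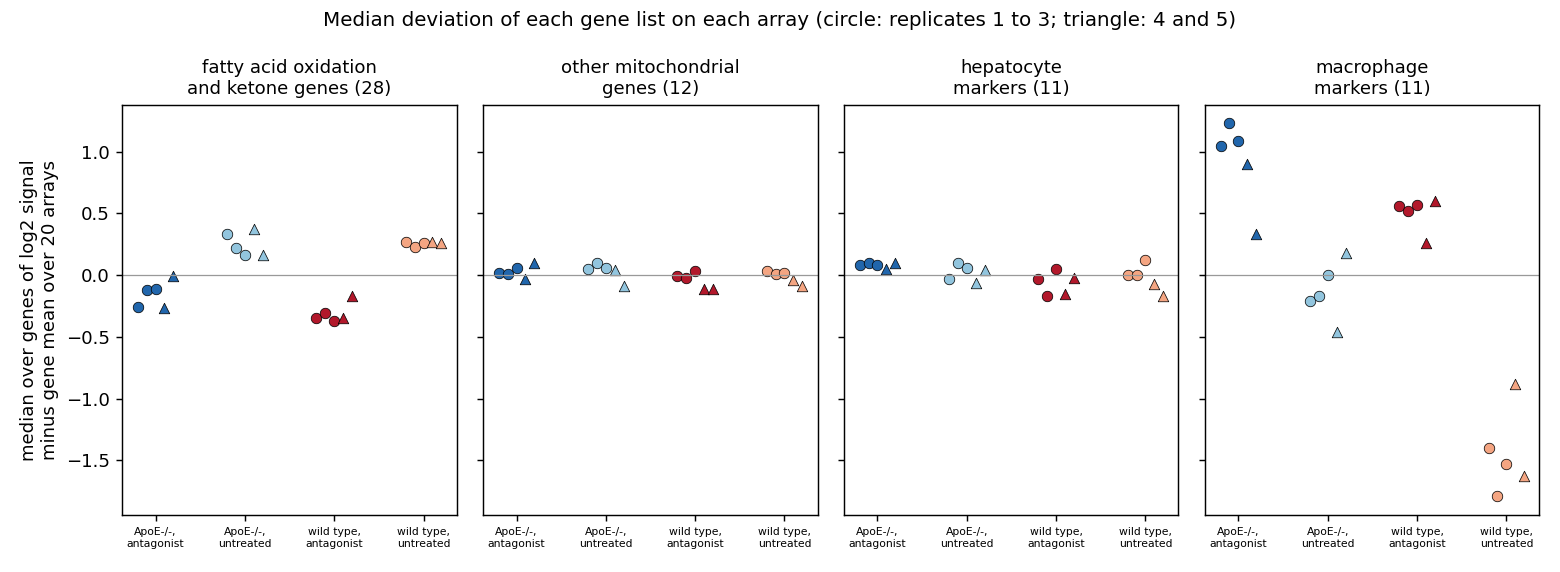
Median over the genes of each list of the log2 signal minus the gene's mean over 20 arrays (y axis), for each array of the 4 groups, with the 28 pathway genes beside 12 other mitochondrial genes, 11 hepatocyte markers and 11 macrophage markers. The pathway genes were at -0.27 to -0.01 on treated and 0.16 to 0.37 on untreated ApoE-/- arrays, and at -0.37 to -0.17 on treated and 0.23 to 0.27 on untreated wild-type arrays.

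With arrays scaled to equal medians in place of quantiles, the median of all entries was 0.09 in ApoE-/- and 0.26 in wild-type mice. Of the entries called, 72.5% in place of 55.2% were then higher in ApoE-/- mice, and 87.4% in place of 56.5% in wild-type mice. The share called higher was 5.65% in place of 32.3% for the difference between genotypes, 86.2% in place of 74.9% for the untreated and 28.2% in place of 57.7% for the treated genotypes. Of the pathway genes 11 fell and 2 rose in ApoE-/- mice in that scaling, and 14 fell and 2 rose in wild-type mice. Of all 12976 entries 894 fell and 2360 rose in ApoE-/- mice, and 720 fell and 4984 rose in wild-type mice. The medians of the pathway genes minus the all-entry median were -0.39 and -0.62 in those genotypes, in place of -0.36 and -0.51. Etfa lost its call in both genotypes at changes of -0.29 in ApoE-/- mice and -0.32 in wild-type mice (adjusted p = 0.211 and 0.123), beside the wild-type losses among the dehydrogenases given above.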

How the data were processed

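The labels' protocols state that total liver RNA was extracted on columns, checked on a Bioanalyzer and labelled as biotinylated cRNA. The submitters' processing notes name BeadStudio and GenomeStudio without a version. The deposited table of the whole series holds, for 45281 probes, the authors' signal intensity on a linear scale, not background-subtracted or quantile-normalized by its values. Its array means are equal within 4 sets by genotype and batch (341.05 and 358.13 in ApoE-/-, 326.99 and 399.38 in wild-type mice), so a scaling preceded deposit. Each intensity has a detection p-value, also deposited. A deposited series matrix gives intensity values that the authors processed, linear and uncentred (column medians of 103.6 to 103.62), which rank as the signals do on every array (lowest Spearman correlation 1). Its scale and direction are thus known and its normalization is not. It was an alternative. Columns of other samples numbered 0.

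In R 4.3.3 with limma 3.58.1, neqc corrected background, inferring the negative controls by way of the detection p-values, normalized quantiles and added an offset of 16. Probes were kept, 18285 in all, if detected (p under 0.05) on 5 or more arrays of 20. The brightest probe of each symbol was used, giving 12976 entries, of which 10362 were named and 2614 unnamed. Of all probes 34885 had 1 symbol, 18 several and 10378 none. A model with 4 group means was fitted to 20 arrays, with Benjamini-Hochberg adjustment at 0.05 in each of 5 contrasts. Precision is limited by having 5 arrays in each group. Probes not detected on any array of a group have a bound only there. Probe-level values come from the same fit over 18285 probes. The procedure was tested on simulated data.

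Same-numbered arrays of the treated and untreated groups deviated together (correlations of 0.17 to 0.43 in ApoE-/- and 0.30 to 0.41 in wild-type mice), as did the treated genotypes (0.11 to 0.27). For the untreated genotypes they ran between 0.00 and 0.49, so these were not taken as paired. The replicate number runs with the array batch. Where arrays were taken as paired, blocked values stand beside the calls they change.

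The members and all gene lists were chosen with earlier results of these data known. Every measured member is named in its step. Array values are given for members that passed in an antagonist contrast, at most 3 a step by the smallest wild-type adjusted p, and for any whose difference between genotypes passed. Of every other list at most 6 genes are named, by the same p, and of the macrophage markers those that did not rise in wild-type mice. Macrophage, endothelial, stellate, neutrophil, erythroid, adipocyte and muscle genes are marker lists. Promoter windows are RefSeq sequences of GRCm38.p6, 250 bases before the start, searched with Python 3.11.15, and windows of Cpt1b, Decr1, Acaa2, Acat1 and Crat were not used here. Alternatives were the series matrix, scaling to equal medians, an offset of 50, no detection filter, the mean of a gene's probes, batch or replicate as a block, each batch alone, the contrast's groups alone and each array left out.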

Additional observations from a re-analysis of the deposited data

Results flagged for a closer look

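Of 112 combinations of a gene and a group 6 had an array far from the other 4 of its group by Dixon's test for 5 values, and chance marks about 1 in 20. Cpt1b read 6.52 on replicate 4 of the untreated ApoE-/- group, where the others read 5.76 to 5.93. Cpt2 read 11.91 on replicate 5 of the treated wild-type group, where the others read 11.58 to 11.64. Mlycd read 9.75 on replicate 4 of the treated ApoE-/- group, below the 10.05 to 10.12 of the others. Etfa read 13.19 on replicate 5 of that group, above the 12.78 to 12.87 of the others. Etfb read 12.58 on replicate 1 of the treated wild-type group, above the 12.35 to 12.42 of the others. Bdh1 read 9.98 on replicate 1 of the treated ApoE-/- group, above the 9.58 to 9.66 of the others.

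The change of Cpt2 with the antagonist differed between the genotypes by 0.54 on the log2 scale (ApoE-/- minus wild type), by the test of the difference itself (limma, adjusted p = 0.0227).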

How the results depend on the processing

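No change called in one setting was called with the opposite sign in another. Under every setting run, the counts called in wild-type mice stayed within 1.5 times those reported. With arrays scaled to equal medians the median of the pathway genes was -0.36 in wild-type mice and 0.06 for the difference, and all entries called for the difference were 549. Settings with more or fewer pathway genes called for treated ApoE-/- against treated wild-type mice gave 5 (series matrix), 5 (offset of 50), 6 (array batch as a block), 8 (replicate block), 0 (batch 1 alone) and 1 (batch 2 alone), in place of 3, and 2 in each of 4 further settings (equal medians, no detection filter, mean of a gene's probes, those groups alone). All entries called there were 1033 with the replicate block, 238 in batch 1 alone and 343 with those groups alone, in place of 659. For the difference between genotypes the pathway genes called were 2 with batch as a block, 3 with the replicate block and 0 in either batch alone, and all entries called were 547, 581 and, in batch 1 alone, 147, in place of 356. In batch 2 alone, with 2 arrays a group, 7 pathway genes and 1041 entries were called in ApoE-/- mice and 1 gene and 146 entries for the untreated genotypes. Leaving out each array gave 1 to 2 genes and 237 to 571 entries for the difference (571 without replicate 1 of treated ApoE-/- mice, 237 without replicate 4 of treated wild-type mice) and 433 to 998 entries for the treated genotypes (998, 438 and 433 without replicates 1, 3 and 4 of treated ApoE-/- mice). It gave 14 to 16 genes in ApoE-/- and 20 to 21 in wild-type mice. For the untreated genotypes, not taken as paired, the replicate block called 3 genes in place of 2, adding Pdk4 (adjusted p = 0.0348). It changed no call in wild-type mice. The cause of these shifts was not tested. Dim probes such as Cpt1a, detected on 7 of 20 arrays, limit what could be seen.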
